A study of Bos taurus with 23 samples.

Results

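LOC522763 (ENSBTAG00000001308) and LOC618633 (ENSBTAG00000040580) are 2 of the 24616 Ensembl genes counted in peripheral white blood cells (PWBC) of beef heifers. They are described side by side because neither locus has an assigned symbol, and both were chosen by the differential expression calls of the study, LOC618633 in station A and LOC522763 in station B. The heifers were pubertal Angus-Simmental crosses in their first breeding season. All of them received GnRH, a progesterone insert and prostaglandin F2α before a fixed-time artificial insemination (AI), and blood was drawn right after it. At station A, 6 heifers conceived to AI (AI-pregnant) and 5 conceived later by natural breeding to a bull (NB-pregnant). At station B, 6 were AI-pregnant and 6 went through the season without conceiving (non-pregnant). Each heifer is 1 library, so spread between animals and spread from the handling or sequencing of their samples cannot be told apart.

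LOC618633 is described by the study as myeloid-associated differentiation marker-like. Proteins of the MYADM family cross the membrane several times, belong to the MARVEL domain proteins that sit in ordered membrane domains, and take their name from the rise of MYADM as bone marrow cells mature along the myeloid line. Blood leukocytes are a mixture of neutrophils, lymphocytes, monocytes and rarer granulocytes, so in bulk PWBC fewer cells that express a gene and less RNA per cell cannot be told apart. No description of LOC522763 is given by the study, and no function is assumed for it here.

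The RefSeq gene table of assembly ARS-UCD2.0 places both loci on the same chromosome and near each other. Only 4 other genes are listed between them, LOC781745, LOC107131588, LOC512440 and LOC613805, and all 4 are named only by a LOC number. Of these, 2 are protein-coding and 2 are pseudogenes, and the pseudogene LOC781745 overlaps the span of LOC522763. AEN and ISG20 are the nearest genes with a symbol on the side of LOC522763. The counts rest on another assembly, UMD3.1, and read pairs that aligned to several places were removed before counting. Whether LOC522763 or LOC618633 lost pairs to a neighbouring copy was not tested.

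The study measured LOC522763 by qPCR as well as by sequencing, on RNA of the same heifers. By qPCR it reported a higher level in non-pregnant than in AI-pregnant heifers of station B, with a P at the limit it had set for qPCR. The primer pair is shown because it is the only sequence that ties this locus to a transcript in the sources used here. Both primers are 20 bases long with 11 G or C bases.
primer 1 of the pair as listed: gcaccgagctcttgactgat
primer 2 of the pair as listed: gtgaaggctgaagctcagga

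Library totals ran from 4826003 to 20434401 read pairs, with a median of 8466736. In station A, 5 libraries (SL220767, SL220771, SL220772, SL220773 and SL220774) had 24.1% to 29.4% of their counts on their 100 highest genes, against 13.1% to 18.4% in the other 6, and they had the lowest totals of the station, between 4826003 and 6105250. In station B, SL253804, SL253808 and SL253811 had 12166 to 12394 genes above 1 CPM (a gene's count per 1000000 counts of its library), against 9970 to 10905 in the other 9. These 8 libraries stand apart, and results are given with and without them where they touch a value. Of the cell type markers listed for these cells, only LYZ, FCER1A and ALAS2 could be matched, through the identifiers that the study gives. LYZ, the lysozyme made by monocytes, lay between 454.7 and 2146 CPM with a median of 959. FCER1A, the alpha chain of the IgE receptor of basophils and mast cells, lay between 3.11 and 30.9 CPM, and ALAS2, the erythroid enzyme of haem synthesis, between 1.42 and 142 CPM. T cell, B cell and neutrophil markers of the list could not be matched, so the makeup of the cells was checked no further.

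LOC522763 ranged over 868-fold among the 23 heifers, from 0.0687 to 59.7 CPM, with a median of 5.82. It exceeded 1 CPM in 22 of them. In AI-pregnant heifers of station A it had 53.4 CPM in SL220764, 24.4 in SL220771, 5.90 in SL220772, 5.30 in SL220766, 2.19 in SL220765 and 0.0687 in SL220775. In NB-pregnant heifers it had 48.2 CPM in SL220768, 39.3 in SL220769, 18.6 in SL220767, 4.60 in SL220773 and 4.35 in SL220774. Both groups of station A therefore held heifers near 5 CPM and heifers near 50 CPM.

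In station B, LOC522763 lay within a narrow range in AI-pregnant heifers, with 6.51 CPM in SL253809, 6.48 in SL253808, 5.82 in SL253812, 5.14 in SL253807, 5.08 in SL253803 and 2.87 in SL253810. The non-pregnant heifers had 59.7 CPM in SL253814, 40.1 in SL253805, 8.40 in SL253813, 4.38 in SL253804, 4.31 in SL253811 and 4.12 in SL253806. SL253814 and SL253805 carried 82.5% of the summed CPM of the 6 non-pregnant heifers. The other 4 lay between 4.12 and 8.40 CPM, and 3 of them were below the AI-pregnant median of 5.48.

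**Figure D1:**
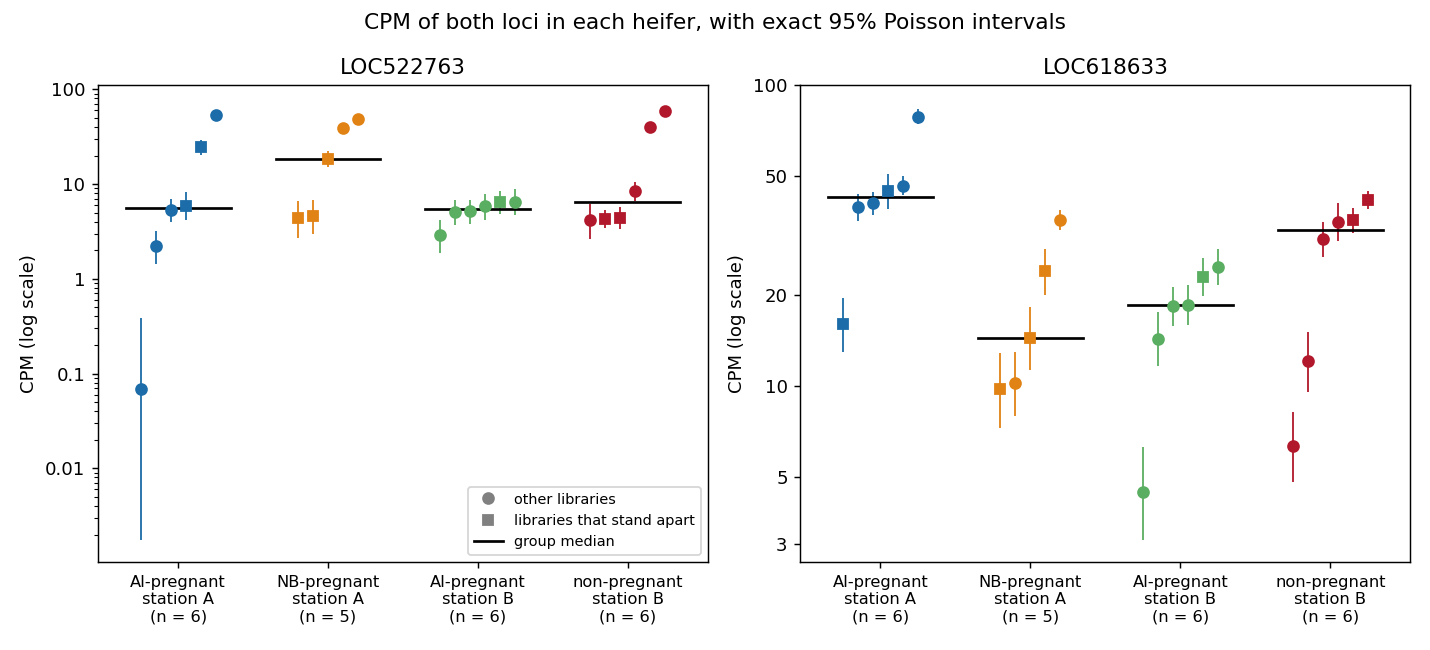
CPM of LOC522763 (left) and LOC618633 (right) on a log scale, 1 point per heifer with its exact 95% Poisson interval, by station and outcome; squares mark the 8 libraries that stand apart and black lines the group medians. LOC522763 has high heifers at 18.6 to 59.7 CPM in 3 of the 4 groups, and LOC618633 is spread more evenly, from 4.47 to 78.5 CPM.

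The 23 values of LOC522763 were ordered, and the widest step, apart from that above the lowest heifer, was picked from them. This step lay between 8.40 CPM (SL253813) and 18.6 CPM (SL220767), a ratio of 2.21. Above it were 7 heifers, 2 of the 6 AI-pregnant and 3 of the 5 NB-pregnant heifers of station A, and 2 of the 6 non-pregnant and none of the 6 AI-pregnant heifers of station B. The 95% Poisson interval was 6.63 to 10.5 CPM for SL253813 and 15.2 to 22.6 CPM for SL220767. Because the step was picked as the widest, separate intervals at its edges are a description and set no boundary between classes. The next widest step, from SL220771 to SL220769 (a ratio of 1.61), also had separate intervals, 20.35 to 29.09 and 36.6 to 42.14 CPM. The intervals cover counting error only. Of the 7 heifers above the step, SL220767 and SL220771 are libraries that stand apart in station A, and the other 5 are not. Below the step, 16 heifers remained, and 15 of them had 2.19 to 8.40 CPM.

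The lowest heifer was far from these. SL220775, an AI-pregnant heifer of station A, had 1 read pair on LOC522763 among 14556250, which allows up to 0.383 CPM. The next heifer, SL220765, had 26 pairs and a value 31.9 times as high. SL220775 was not short of reads, with the third highest total in station A.

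LOC522763 was chosen on the comparison of station B, so the difference there is a description. The 6 non-pregnant heifers averaged 20.2 ± 23.9 CPM (SD) and the 6 AI-pregnant heifers 5.32 ± 1.35 CPM (SD), a ratio of 3.79. The ratio of the medians, 6.39 and 5.48 CPM, was 1.17. A non-pregnant heifer was above an AI-pregnant heifer in 21 of the 36 possible pairs, and the ranges overlapped. Without adjustment, edgeR's likelihood ratio test gave it a P of 0.00864 and DESeq2 one of 0.00616. The rule of the study took genes with 0.01 or less in both, which was 6 of 10832 genes (0.0554%). For each station the study tied this limit to an empirical false discovery rate, taken from randomized outcome labels. That rate was not recomputed here. The paper itself cautions that only some of the non-pregnant heifers drove most of this call, while others were level with AI-pregnant heifers. LOC522763 was the fifth of these 6 by its larger P, ALAS2 (ENSBTAG00000013178) was last inside at 0.00896, and ENSBTAG00000021151 was first outside at 0.01002.

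With TMM factors the log2 fold change of LOC522763 (non-pregnant over AI-pregnant) was 1.90 in edgeR. It was 1.25 without SL253814 and 1.53 without SL253805, and 1.74 to 2.12 when any other heifer was left out. Without the 3 libraries that stand apart in station B it was 2.45. Within the AI-pregnant group the coefficient of variation was 25.4%, where counting error alone would give 15.4%. In the non-pregnant group it was 119%, against 8.35% from counting.

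The heifers of station A did not enter the choice of LOC522763, and there its level was not shown to differ by outcome. The 5 NB-pregnant heifers averaged 23.0 ± 20.03 CPM (SD) and the 6 AI-pregnant heifers 15.2 ± 20.6 CPM (SD). The log2 fold change (NB-pregnant over AI-pregnant) was 0.62 with a standard error of 1.03 and a 95% interval of -1.63 to 2.86 (edgeR's quasi-likelihood test, adjusted p = 0.999). An exact permutation test of the CPM gave p = 0.563 (two-sided). The interval is wide enough to hold the log2 fold change seen in station B. No gene of station A passed an adjusted p of 0.05 in edgeR's test (0 of 12128 genes, 0%), and DESeq2 placed 2 genes under it. In edgeR's test 102 genes had an unadjusted p under 0.05, a smaller share than the 0.05 that evenly spread p-values would give. With the first principal component of log2 CPM as a covariate, 692 genes did, and 0 passed the adjusted p. The p-values of the main fit thus ran high, and its lack of calls does not show that no gene differed.

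The value in station A was not the same in the libraries that stand apart and in the others, but the difference between these subsets was not tested. Among the 6 other libraries (4 AI-pregnant and 2 NB-pregnant) the log2 fold change of LOC522763 was 1.51, and among the 5 libraries that stand apart (2 AI-pregnant and 3 NB-pregnant) it was -0.66 (adjusted p = 0.856 and 1, edgeR's quasi-likelihood test). Without SL220764, the highest AI-pregnant heifer, it was 1.42, and without SL220768, the highest NB-pregnant heifer, 0.24.

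**Figure D2:**
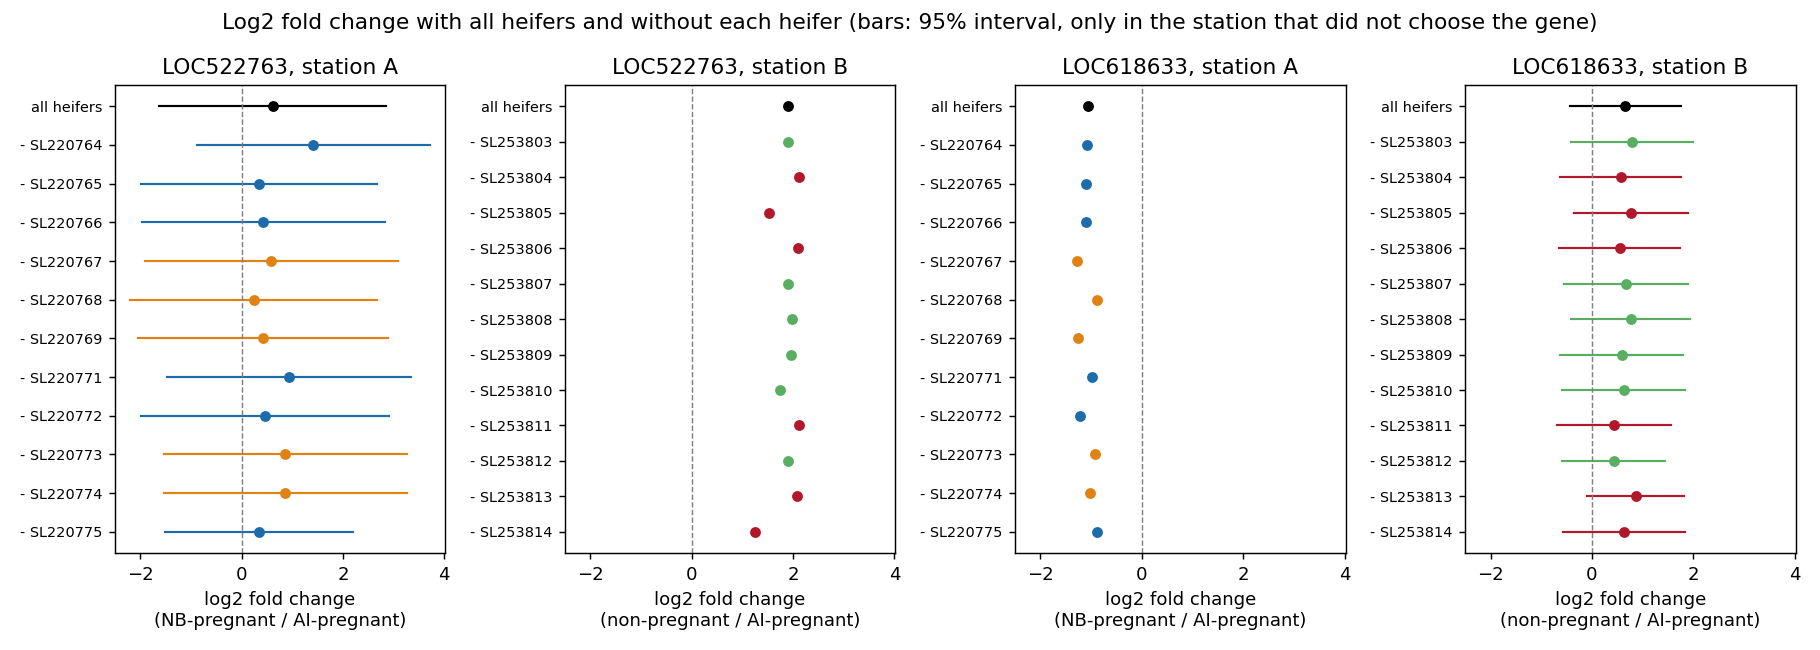
Log2 fold change relative to AI-pregnant heifers for both genes in both stations, with all heifers (black) and without each heifer in turn (coloured by the group of the heifer left out); bars are 95% intervals of the edgeR fit, drawn only for the station that did not choose the gene. LOC522763 in station B moves most without SL253814 (1.25), and the direction of each gene in each station stays the same whichever single heifer is left out.

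LOC618633 was present in every heifer, from 4.47 to 78.5 CPM, with a median of 24.1. In AI-pregnant heifers of station A it had 78.5 CPM in SL220775, 46.3 in SL220764, 44.4 in SL220771, 40.5 in SL220765, 39.3 in SL220766 and 16.0 in SL220772. In NB-pregnant heifers it had 35.6 CPM in SL220769, 24.1 in SL220767, 14.5 in SL220774, 10.2 in SL220768 and 9.77 in SL220773. SL220769 and SL220767 were the only NB-pregnant heifers above SL220772, and the other 3 lay below all AI-pregnant heifers.

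Station A chose LOC618633, so this difference is a description as well. The 6 AI-pregnant heifers averaged 44.2 ± 20.1 CPM (SD) and the 5 NB-pregnant heifers 18.8 ± 10.99 CPM (SD), and an NB-pregnant heifer was above an AI-pregnant heifer in 2 of the 30 pairs. Its P without adjustment was 0.00714 by the likelihood ratio test and 0.00900 by DESeq2. The rule of the study took 18 of 12128 genes there (0.148%), and LOC618633 ranked 16 by its larger P. TPPP (ENSBTAG00000047116) was last inside at 0.00957, and ENSBTAG00000011518 was first outside at 0.0106. With TMM factors the log2 fold change (NB-pregnant over AI-pregnant) was -1.06, and -1.22 without them. It stayed between -1.28 and -0.88 with any 1 heifer left out. Among the 6 libraries that do not stand apart it was -1.18, and among the 5 that do it was -0.86. Across the 11 heifers its log2 CPM had a Pearson's r of 0.66 and a Spearman's rho of 0.53 with the log2 library total. Over the 6 libraries these were 0.69 and 0.37. The part of library total in the difference was not tested.

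In station B, LOC618633 had 24.9 CPM in SL253803, 23.1 in SL253808, 18.6 in SL253810, 18.4 in SL253807, 14.4 in SL253809 and 4.47 in SL253812 among AI-pregnant heifers. The non-pregnant heifers had 41.6 CPM in SL253811, 35.5 in SL253804, 35.1 in SL253806, 30.7 in SL253814, 12.1 in SL253805 and 6.33 in SL253813. Of the 6 non-pregnant heifers, 4 were above every AI-pregnant heifer and the other 2 were among the 3 lowest of the station.

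These heifers did not enter the choice of LOC618633, and its level was not shown to differ by outcome among them. The 6 non-pregnant heifers averaged 26.9 ± 14.2 CPM (SD) and the 6 AI-pregnant heifers 17.3 ± 7.32 CPM (SD). The log2 fold change (non-pregnant over AI-pregnant) was 0.66 with a standard error of 0.50 and a 95% interval of -0.44 to 1.75 (edgeR's quasi-likelihood test, adjusted p = 0.871). An exact permutation test of the CPM gave p = 0.182 (two-sided). In station B, 0 of 10832 genes (0%) passed an adjusted p of 0.05 in the edgeR test, 51 had an unadjusted p under 0.05, and DESeq2 placed no gene under an adjusted p of 0.05. Without the 3 libraries that stand apart the log2 fold change of LOC618633 was 0.33. SL253811 and SL253804, the highest non-pregnant heifers, are among these 3.

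The sign of the LOC618633 difference was thus negative in station A and positive in station B. The groups set against AI-pregnant heifers are not the same in the stations, and the difference between these comparisons was not tested. In CPM, the order of group means was AI-pregnant of station A (44.2), non-pregnant of station B (26.9), NB-pregnant of station A (18.8) and AI-pregnant of station B (17.3). Neighbours in this order had overlapping ranges. For LOC522763 the order was NB-pregnant of station A (23.0), non-pregnant of station B (20.2), AI-pregnant of station A (15.2) and AI-pregnant of station B (5.32), and again each range overlapped the next. Stations were set side by side on the library totals of separate tables, and the station cannot be told apart from anything else that differed between the stations' samples.

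Per length, LOC618633 was the more abundant locus. In FPKM, for which the deposited values work out to gene lengths of 2407 bases for LOC522763 and 2497 for LOC618633, LOC618633 had a median level of 14.3 (station A) and 8.47 (station B). That is above 51.1% and 40.4% of the retained genes. LOC522763 had a median level of 2.45 FPKM (station A) and 2.28 FPKM (station B), above 15.8% and 19.2% of the retained genes.

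LOC522763 was among the most variable genes of station A. The SD of its log2 CPM across the 11 heifers was 2.37, which ranked 5 among 12128 genes, where the median gene had 0.58. The 4 genes above it were BOLA-DQB (ENSBTAG00000021077), a class II antigen-presenting chain, and ENSBTAG00000038233, ENSBTAG00000009656 and ENSBTAG00000039856, which the tables do not pair with names. Among the 500 retained genes closest to it in mean level, none had a larger SD. Over the 6 libraries of station A that do not stand apart it had the largest SD of all 12128 genes (3.19), and without SL220775 it ranked 76 (1.64). In station B its SD was 1.31 (rank 1819 of 10832), and 1.47 (rank 46) over the 9 libraries that do not stand apart.

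LOC618633 was less extreme. Its SD ranked 2508 in station A (0.97) and 2783 in station B (0.98). Without the libraries that stand apart it was 0.96 and 0.98, while its rank moved to 293 and 265, and the SD of the median gene was then 0.30 and 0.36. The first principal component, along which the libraries that stand apart separate, took 75.6% (A) and 85.0% (B) of the variance. In station A, Pearson's r with this component was 0.0044 for LOC522763 and -0.39 for LOC618633 (11 heifers). In station B it was -0.33 and 0.51 (12 heifers). These are descriptions over heifers of which some share a library profile.

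**Figure D3:**
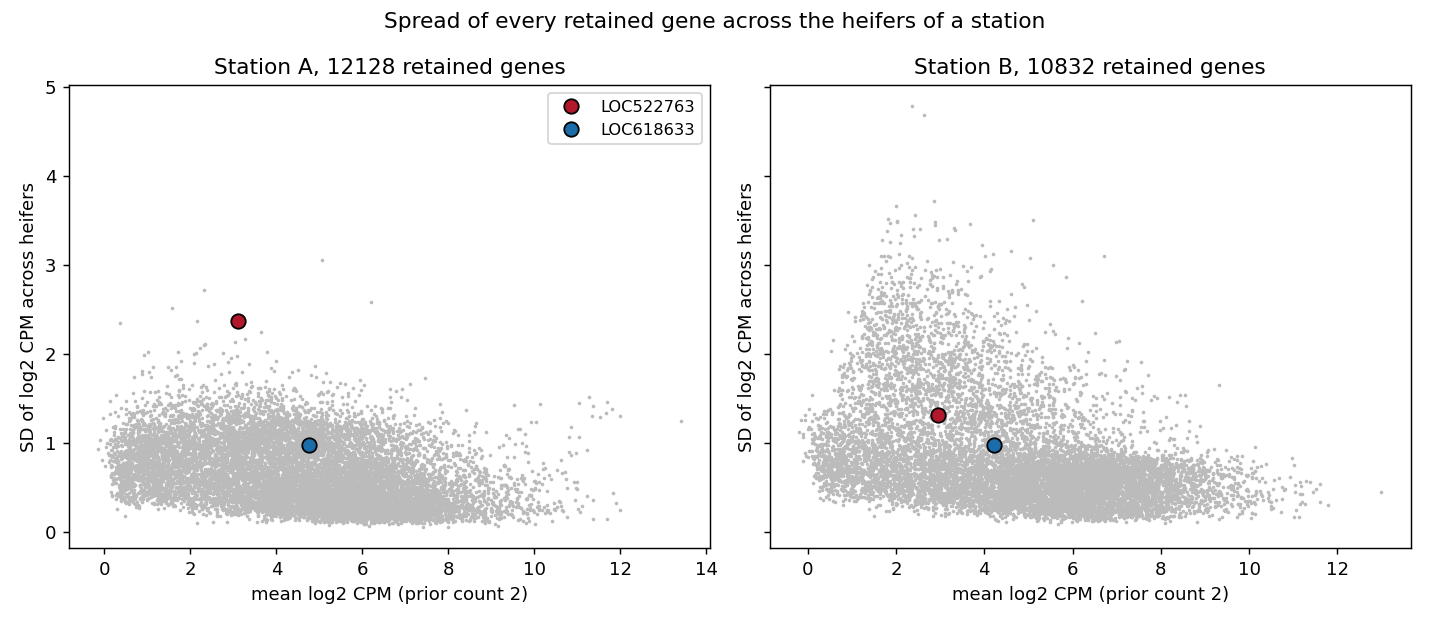
SD of log2 CPM across heifers (vertical) against mean log2 CPM (horizontal) for each retained gene (grey), with both loci marked, in station A (left, 12128 genes) and station B (right, 10832 genes). LOC522763 lies near the top in station A (2.37) and inside the cloud in station B (1.31), and LOC618633 has nearly the same SD in both (0.97 and 0.98).

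Although the loci are neighbours, no correlation of their levels over all heifers of a station passed its permutation test. Spearman's rho of log2 CPM was -0.055 over the 11 heifers of station A (permutation p = 0.880, Pearson's r = -0.31 with permutation p = 0.365). It was -0.51 over the 12 heifers of station B (permutation p = 0.0925, Pearson's r = -0.10 with permutation p = 0.778). Over the libraries that do not stand apart, rho was -0.43 (n = 6, permutation p = 0.422) and r was -0.65 (permutation p = 0.159) in station A, and in station B rho was -0.35 (n = 9, permutation p = 0.356) and r was 0.065 (permutation p = 0.884). After Benjamini-Hochberg adjustment over these 4 comparisons the smallest p of rho was 0.370. Leaving out the 2 heifers farthest from the median of LOC522763 changed r to -0.014 and rho to -0.017 in station A. Over its 6 libraries that do not stand apart, r became -0.31 and rho turned to 0.20. In station B, without SL253805 and SL253814, both were more negative, with an r of -0.57 and a rho of -0.68, and over the libraries that do not stand apart an r of -0.59 and a rho of -0.79. No test was run on these values with heifers left out. The r of station A over all heifers thus rested on the pair left out, SL220764 and SL220775. SL220775 is the extreme case, with the lowest LOC522763 of all heifers and the highest LOC618633.

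**Figure D4:**
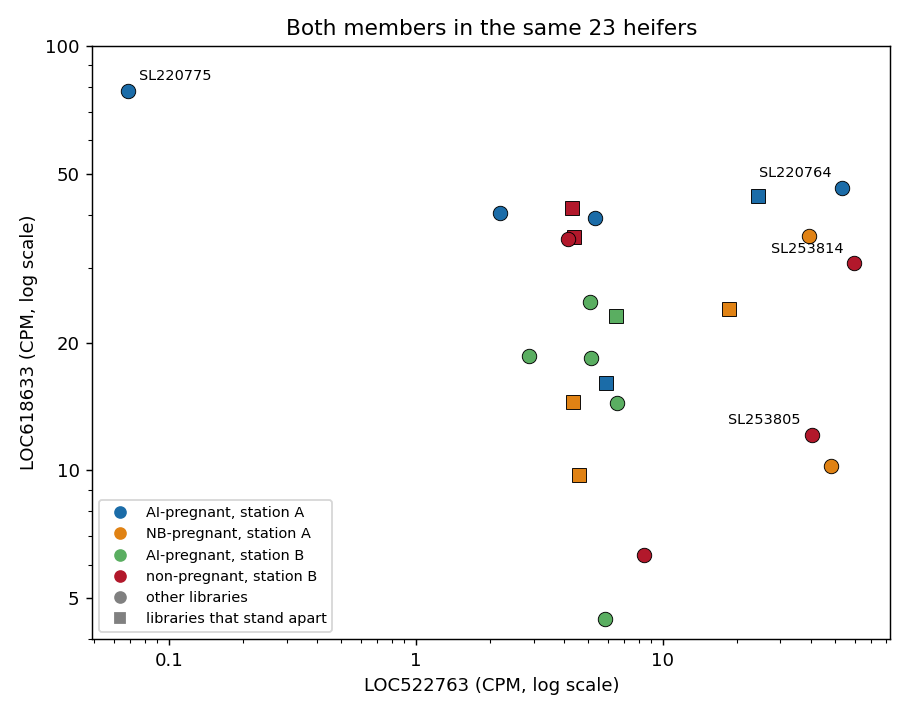
LOC618633 CPM against LOC522763 CPM on log scales, 1 point per heifer, coloured by station and outcome, with squares for the 8 libraries that stand apart. SL220775 lies alone at 0.0687 and 78.5 CPM, and the 7 heifers above 18 CPM of LOC522763 cover 10.2 to 46.3 CPM of LOC618633.

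The study chose LYZ and FCER1A by the same station A comparison as LOC618633, and ALAS2 by the same station B comparison as LOC522763, so their likeness there carries that choice. LOC618633 had a rho of 0.74 with LYZ, 0.54 with FCER1A and -0.60 with ALAS2 over the 11 heifers of station A, and 0.49, 0.77 and -0.54 over the 6 libraries that do not stand apart. Over the 12 heifers of station B rho was -0.15, -0.31 and 0.57 in the same order, and 0.15, 0.17 and 0.27 over the 9 libraries that do not stand apart. The signs of rho with LYZ and FCER1A in station B thus turned without the 3 libraries. Pearson's r with FCER1A did not turn there, at -0.36 with them and -0.040 without them. LOC522763 had a rho of -0.13 with LYZ, -0.18 with FCER1A and -0.45 with ALAS2 in station A, and -0.60, -0.54 and -0.26 without the libraries that stand apart. In station B it had 0.32, 0.36 and -0.25, and 0.27, 0.35 and 0.10 without them, so that the sign with ALAS2 turned. The part of cell makeup in either gene was not tested.

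The genes most like each locus differed between the stations. For LOC522763 in station A, the 5 genes with the highest rho had 0.89 to 0.92, led by ENSBTAG00000021174 (163 to 238 CPM). In station B the same 5 genes had a rho of -0.21 to 0.26 with it. In station B the 5 highest were 0.73 to 0.85, led by ENSBTAG00000006529 (12.04 to 21.96 CPM), and the 3 of them retained in station A had -0.18 to 0.16 there. Each list is the top of 12127 genes over 11 heifers or of 10831 genes over 12 heifers, so its high values are a description. Of the 10421 other genes retained in both stations, none reached a rho of 0.6 with LOC522763 in both.

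For LOC618633 the top genes of one station kept, by their median rho, more of their likeness in the other, which was not tested. The 5 highest in station A had 0.84 to 0.90, led by ENSBTAG00000017733, and -0.50 to 0.66 in station B, with a median of 0.44 where the median of all genes was -0.056. The 5 highest in station B had 0.87 to 0.91, led by ENSBTAG00000007986, and 0.24 to 0.63 in station A, with a median of 0.39 where that of all genes was 0.24. A rho of 0.6 or more in both stations was found for 105 of the 10421 genes, the highest for ENSBTAG00000026326 (0.72 and 0.71). The names of these genes are not paired with their identifiers in the tables used here. The counts of genes alike in both stations, for either locus, were taken over all heifers only. In station B, LOC618633 had a rho of 0.62 with the first principal component, and 0.37 without the libraries that stand apart. In station A these values were -0.37 and 0.029. The part of library profile in these likenesses was not tested.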

How the data were processed

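Per the paper's methods, the authors aligned read pairs to UMD3.1 (also named in the submitters' processing notes), removed duplicates and pairs with several alignments or with 5 or more mismatches, and counted pairs on Ensembl genes with HTSeq. The aligner is not given in the sources used here. The counts deposited are raw whole numbers per gene. The authors also deposited FPKM, that is counts scaled by gene length and library size.

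CPM used the total of the full table. Each station was tested apart, on the genes above 1 CPM in at least 6 of its libraries, with TMM factors and the quasi-likelihood test of edgeR, and p-values were adjusted by Benjamini-Hochberg over these genes (threshold 0.05). Fits on fewer heifers kept the genes retained in the whole station. Standard errors were taken from the fold change and the F statistic. Log2 CPM used a prior count of 2. Correlations were permuted 100000 times. The fits were also run on simulated counts. These lacked the profiles that set some libraries apart here, so that run cannot show how the fits handle such libraries.

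Alternatives were other normalization factors or none, other filters, a likelihood ratio test, DESeq2, permutation of single genes, a principal component as a covariate, and leaving out heifers or the libraries that stand apart. The last was added for station A after seeing the data. The members and lists were chosen with earlier results of these data known. Genes named as most alike are from the 5 with the highest Spearman correlation per locus and station, and other genes named were singled out after their values were seen. MARVEL family genes and most cell type markers were not analysed here, because the RefSeq table pairs none of its genes with an Ensembl identifier. The names used are those the study pairs with identifiers. Tools were R 4.3.3, edgeR 4.0.16, DESeq2 1.42.0, Python 3.11.15, numpy 2.4.6, scipy 1.17.1, pandas 2.3.3 and matplotlib 3.10.9.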

Additional observations from a re-analysis of the deposited data

How the results depend on the processing

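The log2 fold change of LOC522763 in station A stayed positive and without a call in 18 of 19 alternatives, from 0.24 to 1.42 with 1 heifer left out, and turned to -0.66 among the 5 libraries that stand apart alone. The cause was not tested. With more than 1 CPM required in every library LOC522763 was not tested in station A. LOC618633 in station B stayed positive and without a call in all 20 alternatives. With 1 heifer left out, its log2 fold change ran from 0.43 without SL253812 to 0.87 without SL253813. The value was lower, at 0.33, without the libraries that stand apart, and 0.38 when the fit also held the first principal component. The lowest adjusted p of LOC618633 in any fit was 0.404. The described differences kept their sign in all 16 alternatives each, from 1.25 to 2.45 for LOC522763 in station B and from -1.28 to -0.86 for LOC618633 in station A. The lists of the 5 genes most alike changed more. With Pearson's r in place of rho, 0 to 1 of the 5 genes were shared per list, and without the libraries that stand apart 0 to 2. No paired analysis was possible because the labels give no replicate numbers that link heifers of different outcomes. Depth limits the single values of LOC522763, since 10 heifers had 43 or fewer read pairs on it.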

Other observations

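Each group of 5 or 6 heifers was checked for a single heifer far from the others in CPM, for both loci, which made 8 checks, and none of them passed Dixon's limit. LOC522763 came closest in the AI-pregnant heifers of station B, where the low heifer SL253810 gave a ratio of 0.607 against a limit of 0.625. The ratio looks for a single heifer apart from the rest, so heifers that are high together can hide each other. For LOC522763 in non-pregnant heifers of station B, SL253814 had 59.7 CPM and SL253805 40.1 CPM, and the ratio was 0.352. In CPM, SL220775 (0.0687 CPM) also lay close to other low heifers of its group. The checks therefore cannot show that no heifer is far from its group.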
